A study of Mus musculus with 8 samples.

Results

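Interferon-stimulated genes are the genes that cells switch on when an interferon binds its receptor, and 43 of them were followed in mouse aortic tissue here. The members were taken by gene symbol, with no threshold on measured values, from a list drawn up with earlier results of these data known. All 43 were found among the 13839 genes of the table, 42 by symbol and Ddx58, the RNA helicase RIG-I, by its Ensembl identifier under the newer symbol Rigi. RNA sequencing had been done on 5 control libraries and 3 libraries labelled TAD. From 3 weeks of age the TAD mice drank BAPN, which blocks the lysyl oxidase enzymes of collagen and elastin cross-linking, at 1 g/kg/day over 4 weeks. Osmotic pumps placed at 7 weeks then gave them 1 µg/kg/min of angiotensin II, a vasoconstrictor peptide, with tissue collected after 24 h. What the controls received, their age, the strain, the sex and the number of mice behind a library are not stated in the labels used. BAPN and angiotensin II were given to the same mice and cannot be told apart, and each p-value covers no more than the spread among these libraries. Neither group is described as carrying an allele or a transgene.

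Type I interferons act through the receptor IFNAR and the kinases JAK1 and TYK2. STAT2 and IRF9 are subunits of the complex ISGF3, which is activated in this way and binds a DNA element called ISRE in front of its target genes. Type II interferon acts through another DNA element, called GAS. The products of the target genes sense viral nucleic acid, block translation or entry of viruses, degrade RNA or feed back on the pathway. Macrophages, other leukocytes and cells of the vessel wall can all respond in this way.

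Promoter letters are shown first because ISRE is the element by which the family is usually recognised. The core searched was the run GAAA, then any 2 bases, then GAAA again, read on both strands (TTTC, any 2 bases, TTTC in reverse), in RefSeq windows of 250 bases before to 50 bases after the start on GRCm38.p6. Of the 34 members with a window, 19 (55.9%) held the core, against 3.99% of all 27025 genes with a window. Isg15 (chr4:156200855-156200916, minus strand) and Oas3 (chr5:120777705-120777754, minus strand) are shown as members with some of the largest increases. Oasl1, which rose more than Oas3, has a window without the core. Ifit1 (chr19:34640765-34640833, plus strand) and Ifit3 (chr19:34583353-34583436, plus strand) are shown because each holds the core at separate places. Rsad2 (chr12:26456543-26456592, minus strand) is a member that rose while its neighbour Cmpk2 was not called. Gbp7 (chr3:142530263-142530312, plus strand) and Gbp5 (chr3:142496749-142496798, plus strand) are shown because both hold the core and neither was called. Each run is written 5′ to 3′ on the strand of its gene, and capitals mark the letters of the core, run together where matches overlap.
Isg15: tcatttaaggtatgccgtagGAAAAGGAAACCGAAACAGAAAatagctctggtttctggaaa
Oas3: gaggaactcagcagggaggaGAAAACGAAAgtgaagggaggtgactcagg
Ifit1: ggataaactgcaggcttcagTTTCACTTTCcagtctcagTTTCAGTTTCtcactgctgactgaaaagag
Ifit3: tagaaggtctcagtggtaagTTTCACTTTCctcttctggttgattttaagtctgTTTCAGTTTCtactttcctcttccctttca
Rsad2: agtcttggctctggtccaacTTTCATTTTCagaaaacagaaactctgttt
Gbp7: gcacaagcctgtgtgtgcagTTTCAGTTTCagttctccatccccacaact
Gbp5: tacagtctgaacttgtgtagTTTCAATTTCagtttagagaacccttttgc

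Of the 43 members, 25 (58.1%) were higher in TAD in edgeR's quasi-likelihood test at a Benjamini-Hochberg adjusted p below 0.05, and the other 18 were not called. Over all 13701 genes tested, 15.2% were called higher, 11.8% lower and 27.0% in either direction. No member was called lower by edgeR, none was lower at an unadjusted p below 0.05, and none was called lower by DESeq2 or limma. The median log2 fold change was 0.91 over the members and 0.04 over all tested genes. Increases of called members ran from 1.31-fold (Ddx58) to 12-fold (Isg15). Of the 25 called members, 20 rose at least 2-fold and 8 at least 4-fold. The plot of changes by role shows all members.

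The 3 TAD libraries lay above all 5 controls for 17 members, against 16.9% of all tested genes. No member had all TAD libraries below all controls, against 2052 of the 13701 tested genes. The groups overlapped for the remaining 26 members. Of the called members, 8 overlapped with the controls, namely Trim25, Stat2, Ifit1, Gbp2, Igtp, Irgm1, Bst2 and Lgals3bp. With each library left out in turn, 15 of the 25 called members stayed called every time, and the number of members called ran from 15 without TAD 2 to 31 without TAD 3. The count was 16 without TAD 1 or without control 4. Of all tested genes, 15.1% were called higher without TAD 2, 14.9% without TAD 3, 10.2% without TAD 1 and 11.2% without control 4.

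**Figure D1:**
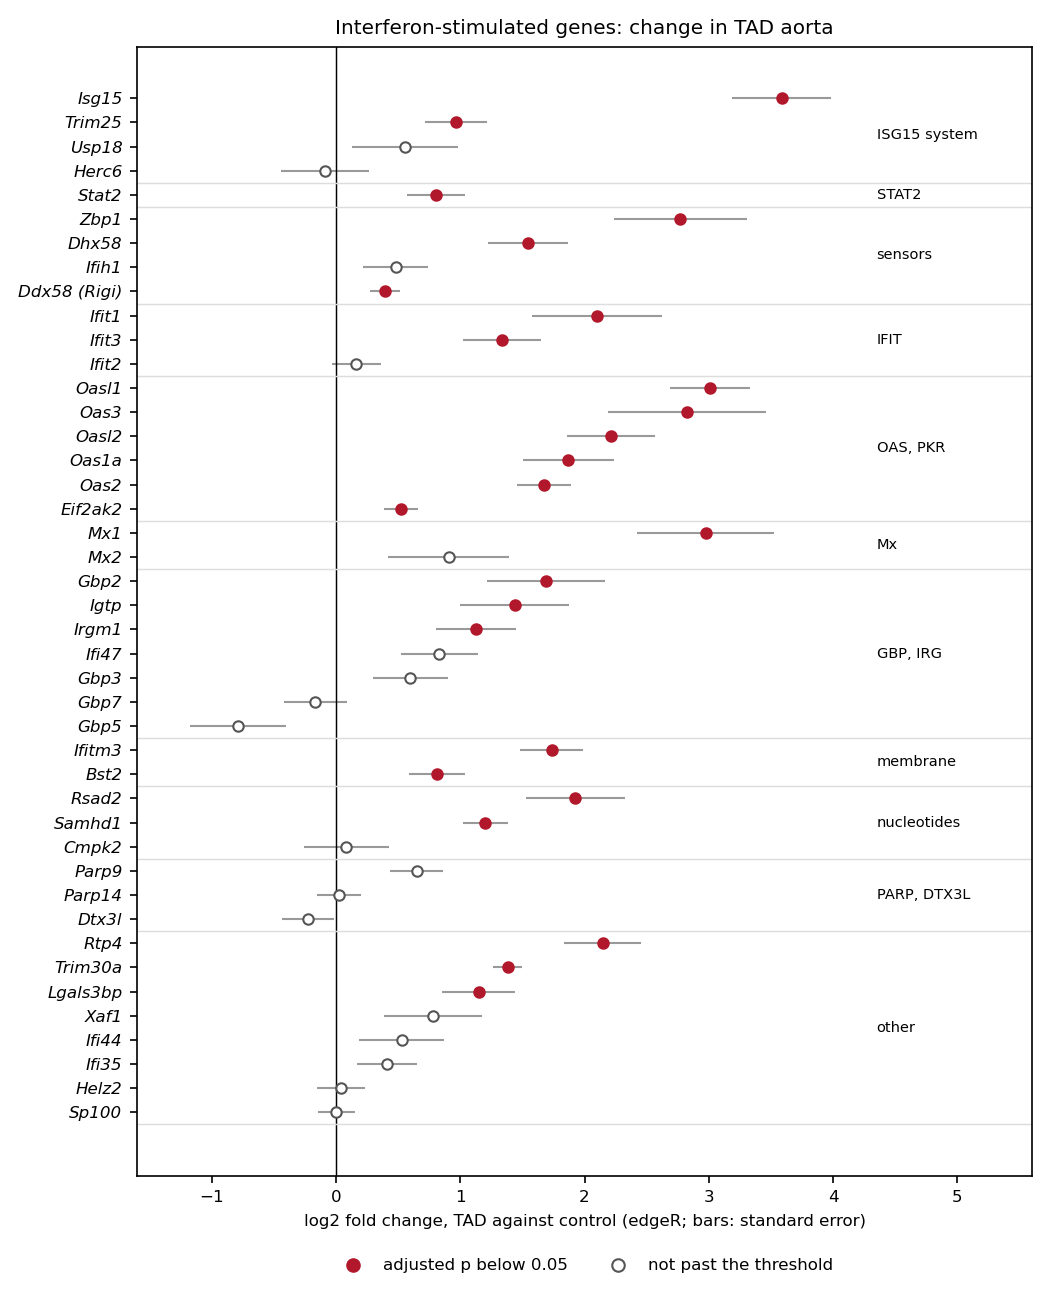
Log2 fold change of TAD over control for each of the 43 interferon-stimulated genes, grouped by role, with its standard error as a bar. Filled points mark the 25 members called higher by edgeR, which run from Ddx58 at 0.39 to Isg15 at 3.59.

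ISG15 is a ubiquitin-like protein that is attached to other proteins after interferon, and 2 of the 4 members of its system rose. Isg15 stood at 2.95, 4.72, 2.61, 2.57 and 4.99 CPM (counts scaled to the library total with TMM factors) in controls 1 to 5 and at 39.9, 67.9 and 21.2 CPM in TAD 1 to 3. Every TAD library lay several times above every control, with TAD 3 the lowest of them. Isg15 rose by a log2 fold change of 3.59 ± 0.40 (SE; edgeR adjusted p = 0.000691). Trim25, a ubiquitin ligase that acts on RIG-I, stood at 69.0, 55.0, 55.0, 51.0 and 64.7 CPM in the controls and at 129, 152 and 64.8 CPM in TAD. TAD 3 lay within the control range, below the other TAD libraries, which were above all controls. Trim25 rose by a log2 fold change of 0.97 ± 0.25 (SE; edgeR adjusted p = 0.022), a call that was lost without control 4, TAD 1 or TAD 2 (edgeR adjusted p up to 0.0741).

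Usp18 is the protease that removes ISG15 and also restrains the type I receptor. It stood at 9.02, 7.65, 7.46, 10.1 and 8.68 CPM in the controls and at 14.8, 19.2 and 3.88 CPM in TAD. TAD 1 and TAD 2 were above every control while TAD 3 was below every control, and Usp18 was not called (log2 fold change 0.56 ± 0.43 SE, edgeR adjusted p = 0.362). Without TAD 3 its log2 fold change was 0.99 (edgeR adjusted p = 0.0126). Herc6, the mouse ligase for ISG15, had a log2 fold change of -0.09 ± 0.36 (SE; edgeR adjusted p = 0.88). Its sign changed without TAD 1 or without TAD 3, so no direction is given.

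Stat2, a subunit of ISGF3, stood at 32.2, 34.1, 34.8, 25.7 and 44.2 CPM in the controls and at 71.3, 69.1 and 38.8 CPM in TAD. TAD 1 and TAD 2 were above all controls and TAD 3 was below control 5 alone. Stat2 rose by a log2 fold change of 0.80 ± 0.23 (SE; edgeR adjusted p = 0.0347), and this call was lost without control 1, 2, 3 or 4, TAD 1 or TAD 2 (edgeR adjusted p up to 0.13).

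Sensors of foreign nucleic acid were called for 3 of 4 members. Zbp1, which binds left-handed RNA and DNA and can trigger cell death, stood at 2.55, 3.97, 5.00, 1.76 and 7.29 CPM in the controls and at 29.7, 44.2 and 10.5 CPM in TAD. The groups did not overlap, and Zbp1 rose by a log2 fold change of 2.77 ± 0.53 (SE; edgeR adjusted p = 0.00664). Dhx58 encodes LGP2, a helicase that tunes the RNA sensors RIG-I and MDA5. It stood at 4.47, 3.82, 2.76, 2.64 and 2.69 CPM in the controls and at 12.3, 10.6 and 5.85 CPM in TAD. Again the groups did not overlap, and Dhx58 rose by a log2 fold change of 1.55 ± 0.32 (SE; edgeR adjusted p = 0.00893).

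The helicase genes themselves changed less. Ddx58, given per library after its values were seen, stood at 27.5, 30.8, 31.3, 30.4 and 33.7 CPM in the controls and at 41.9, 43.7 and 35.5 CPM in TAD. The TAD libraries were above the controls by a small margin, with a log2 fold change of 0.39 ± 0.12 (SE; edgeR adjusted p = 0.0443). That call was lost on leaving out any 1 library other than TAD 3 (edgeR adjusted p up to 0.13) and with upper-quartile scaling (edgeR adjusted p = 0.0712). Ifih1, which encodes MDA5, stood at 19.0, 27.0, 20.4, 19.2 and 19.2 CPM in the controls and at 29.1, 41.4 and 17.3 CPM in TAD. TAD 3 was below every control, and Ifih1 was not called (log2 fold change 0.48 ± 0.26 SE, edgeR adjusted p = 0.209). Without TAD 3 its log2 fold change was 0.75 (edgeR adjusted p = 0.032).

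IFIT proteins bind viral RNA and block its translation, and 2 of the 3 family members rose. Ifit1 stood at 6.23, 10.04, 3.80, 7.26 and 10.2 CPM in the controls and at 28.8, 58.5 and 9.46 CPM in TAD. TAD 1 and TAD 2 were well above the controls and TAD 3 lay among them. Ifit1 rose by a log2 fold change of 2.10 ± 0.53 (SE; edgeR adjusted p = 0.0197), which fell to 1.34 without TAD 2 and was then not called (edgeR adjusted p = 0.0728). Ifit3 stood at 11.5, 14.8, 10.4, 8.14 and 7.53 CPM in the controls and at 25.1, 38.5 and 15.8 CPM in TAD. TAD 3 was just above the highest control, and Ifit3 rose by a log2 fold change of 1.34 ± 0.32 (SE; edgeR adjusted p = 0.0158). Ifit2 stood at 14.4, 17.0, 19.2, 22.8 and 16.1 CPM in the controls and at 18.6, 24.7 and 16.9 CPM in TAD. Those ranges overlapped, and Ifit2 was not called (log2 fold change 0.16 ± 0.20 SE, edgeR adjusted p = 0.576). Ifit3 has a near-identical copy, Ifit3b, so reads may be split or lost between them.

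The 2-5A synthetases make a short oligoadenylate that activates RNase L, and PKR, encoded by Eif2ak2, stops translation on double-stranded RNA. All 6 members of this group rose, with a median log2 fold change of 2.04. Oasl1, which in mouse represses translation of Irf7 mRNA, stood at 1.36, 2.25, 1.49, 1.61 and 1.92 CPM in the controls and at 18.3, 15.6 and 8.01 CPM in TAD. It rose by a log2 fold change of 3.01 ± 0.32 (SE; edgeR adjusted p = 0.000597). Oas3 stood at 1.36, 0.974, 1.49, 1.10 and 6.45 CPM in the controls and at 17.9, 19.7 and 10.9 CPM in TAD. Control 5 stood apart from the other controls but remained below TAD. Oas3 rose by a log2 fold change of 2.83 ± 0.64 (SE; edgeR adjusted p = 0.0128), and by 3.71 without control 5. Oasl2 stood at 16.6, 18.6, 16.6, 9.46 and 24.3 CPM in the controls and at 72.8, 121 and 44.6 CPM in TAD, with no overlap. Its log2 fold change was 2.22 ± 0.35 (SE; edgeR adjusted p = 0.00294).

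In the same family, Oas1a rose by a log2 fold change of 1.87 ± 0.36 (SE; edgeR adjusted p = 0.00685) and Oas2 by 1.67 ± 0.22 (SE; edgeR adjusted p = 0.00135). Oas1a belongs to a cluster of similar copies that includes Oas1g, so its reads may be shared. All 5 Oas and Oasl genes lie on chromosome 5. Eif2ak2, on chromosome 17, rose by the least in this group, from between 23.7 and 29.6 CPM in the controls to between 32.2 and 43.7 CPM in TAD. Its log2 fold change was 0.53 ± 0.14 (SE; edgeR adjusted p = 0.0227), and the call was lost without control 2, control 4, TAD 1 or TAD 2 (edgeR adjusted p up to 0.0696).

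Mx proteins are dynamin-like GTPases that trap viral components. Mx1 stood at 1.20, 1.499, 0.97, 0.44 and 1.15 CPM in the controls and at 9.37, 13.1 and 2.56 CPM in TAD. It was a scarce transcript in both groups, without overlap, and rose by a log2 fold change of 2.98 ± 0.55 (SE; edgeR adjusted p = 0.00557). Mx2 stood at 2.55, 2.47, 2.01, 2.79 and 2.38 CPM in the controls and at 4.44, 7.95 and 1.38 CPM in TAD. TAD 3 was below every control and the other TAD libraries were above, and Mx2 was not called (log2 fold change 0.91 ± 0.49 SE, edgeR adjusted p = 0.20). Without TAD 3 its log2 fold change was 1.34 (edgeR adjusted p = 0.0221).

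Guanylate-binding proteins and immunity-related GTPases attack the vacuoles of intracellular pathogens, and many of their genes respond to type II interferon. Only 3 of the 7 members in this group were called. Gbp2 stood at 34.4, 39.1, 50.1, 34.0 and 42.2 CPM in the controls and at 193, 164 and 30.0 CPM in TAD. TAD 1 and TAD 2 were several times above the controls and TAD 3 was below all of them. Gbp2 rose by a log2 fold change of 1.69 ± 0.47 (SE; edgeR adjusted p = 0.0299). Igtp stood at 28.02, 42.4, 40.9, 22.7 and 45.7 CPM in the controls and at 150, 111 and 31.1 CPM in TAD, with TAD 3 inside the control range. Igtp rose by a log2 fold change of 1.44 ± 0.44 (SE; edgeR adjusted p = 0.0417). Irgm1 stood at 27.5, 29.8, 27.2, 21.2 and 21.4 CPM in the controls and at 87.6, 52.5 and 26.7 CPM in TAD. TAD 3 again lay inside the control range, and Irgm1 rose by a log2 fold change of 1.13 ± 0.32 (SE; edgeR adjusted p = 0.0332).

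These 3 calls depended on single libraries. Gbp2 was not called without control 1, 2, 4 or 5, TAD 1 or TAD 2, Igtp not without any 1 library other than TAD 3, and Irgm1 not without control 1, 3, 4 or 5, TAD 1 or TAD 2. Without TAD 1 the log2 fold changes were 1.25 for Gbp2 (edgeR adjusted p = 0.123), 0.96 for Igtp (edgeR adjusted p = 0.178) and 0.62 for Irgm1 (edgeR adjusted p = 0.133). In limma on log2(FPKM + 1) none of these genes was called, with adjusted p of 0.0937, 0.0825 and 0.055. Gbp5, which also helps to assemble inflammasomes and is given per library after its values were seen, stood at 18.7, 19.5, 32.1, 11.8 and 18.1 CPM in the controls and at 18.2, 9.41 and 7.29 CPM in TAD. It had the lowest log2 fold change of the members, -0.79 ± 0.39 (SE; edgeR adjusted p = 0.166), and was not called. Gbp7 stood between 26.0 and 51.5 CPM in the controls and between 25.3 and 38.0 CPM in TAD, with a log2 fold change of -0.17 ± 0.25 (SE; edgeR adjusted p = 0.663). Gbp3 and Ifi47 had log2 fold changes of 0.60 ± 0.30 and 0.83 ± 0.31 (SE) and edgeR adjusted p of 0.176 and 0.0796. Gbp3 was called when TAD 3 was left out (at 0.93, edgeR adjusted p = 0.00769) and Ifi47 without control 3 (log2 fold change 1.02, edgeR adjusted p = 0.045). The Gbp genes on chromosome 3 are similar in sequence, and the handling of reads that fit several of them is not stated in the labels used.

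Both membrane-bound restriction factors rose. Ifitm3, which blocks fusion of viruses in endosomes, stood at 86.8, 108, 72.9, 64.9 and 82.2 CPM in the controls and at 386, 264 and 180 CPM in TAD. All TAD libraries were above all controls, and Ifitm3 rose by a log2 fold change of 1.74 ± 0.25 (SE; edgeR adjusted p = 0.00201). Per kilobase of gene it was the most abundant member in both groups, at 120 ± 24.5 FPKM in control (SD, n = 5) and 410 ± 154 FPKM in TAD (SD, n = 3). Bst2, or tetherin, which holds budding virus at the cell surface, stood at 40.7, 42.9, 29.4, 38.4 and 48.5 CPM in the controls and at 78.4, 85.8 and 46.5 CPM in TAD. TAD 3 was below control 5. Bst2 rose by a log2 fold change of 0.81 ± 0.22 (SE; edgeR adjusted p = 0.0283), a call lost without control 1, 3 or 4, TAD 1 or TAD 2 (edgeR adjusted p up to 0.0971).

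By level, Isg15 moved from seventh of the members in control, at 4.97 ± 1.64 FPKM (SD, n = 5), to the second place in TAD, at 61.3 ± 33.2 FPKM (SD, n = 3). Bst2, at 58.5 ± 17.1 FPKM in TAD (SD, n = 3), did not differ from Isg15 beyond their spread. Lgals3bp and Gbp2 followed at 40.4 ± 17.4 and 38.4 ± 25.9 FPKM in TAD (SD, n = 3), also within each other's spread. The median level of called members was 3.05 FPKM in control and 6.97 FPKM in TAD, and that of members not called was 2.1 and 2.69 FPKM. Counts behind a member ranged from 6 to 4696 per library.

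Rsad2 and Samhd1, which act on nucleotides, rose, and Cmpk2 was not called. Rsad2 encodes viperin, which makes a chain-terminating nucleotide from CTP, and it stood at 32.7, 12.8, 48.3, 15.8 and 37.9 CPM in the controls. Its TAD values of 108, 122 and 106 CPM were above all controls and close to each other. Rsad2 rose by a log2 fold change of 1.93 ± 0.40 (SE; edgeR adjusted p = 0.00898). Samhd1, a phosphohydrolase that depletes deoxynucleotides, stood at 70.1, 72.1, 82.6, 63.2 and 76.1 CPM in the controls and at 209, 174 and 118 CPM in TAD. Its groups did not overlap and its log2 fold change was 1.20 ± 0.18 (SE; edgeR adjusted p = 0.00236). Cmpk2, a mitochondrial nucleotide kinase, stood at 19.0, 17.8, 18.3, 14.6 and 13.3 CPM in the controls and at 18.7, 26.3 and 7.75 CPM in TAD. TAD 2 was above and TAD 3 below all controls (log2 fold change 0.08 ± 0.34 SE, edgeR adjusted p = 0.878).

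Among Parp9, Parp14 and Dtx3l, which encode ADP-ribosylating enzymes and the ubiquitin ligase that partners PARP9, no member was called by edgeR, and 1 had an unadjusted p below 0.05. DESeq2 called 1 of them, Parp9. Parp9 stood at 23.0, 27.5, 31.8, 23.9 and 30.1 CPM in the controls and at 57.1, 41.3 and 29.9 CPM in TAD. TAD 3 lay within the controls, and the log2 fold change was 0.65 ± 0.21 (SE; edgeR adjusted p = 0.0532, DESeq2 adjusted p = 0.0353). Without TAD 3 it was 0.85 (edgeR adjusted p = 0.0148). Dtx3l stood at 26.6, 36.4, 37.1, 22.4 and 33.6 CPM in the controls and at 31.6, 26.4 and 22.2 CPM in TAD, with wide overlap and a log2 fold change of -0.22 ± 0.21 (SE; edgeR adjusted p = 0.455). Parp14 stood at 48.9, 58.2, 60.9, 53.0 and 71.6 CPM in the controls and at 61.4, 71.0 and 46.3 CPM in TAD. It overlapped as well, with a log2 fold change of 0.02 ± 0.18 (SE; edgeR adjusted p = 0.931) whose sign changed with upper-quartile scaling.

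Of the 8 remaining members, 3 rose. Rtp4, a chaperone of membrane receptors that also restrains RNA viruses, stood at 9.42, 10.04, 6.34, 7.48 and 10.98 CPM in the controls and at 43.8, 53.7 and 20.1 CPM in TAD. It rose without overlap by a log2 fold change of 2.15 ± 0.31 (SE; edgeR adjusted p = 0.00203), and 13.9% of its exon bases lie in another annotated gene. Trim30a, which in mouse restrains signalling to NF-kappaB, stood at 16.5, 17.2, 16.3, 18.1 and 18.6 CPM in the controls and at 43.6, 49.4 and 42.7 CPM in TAD. Both groups were tight and far apart, and its adjusted p was the lowest of the members (log2 fold change 1.38 ± 0.11 SE, edgeR adjusted p = 0.000288). Lgals3bp, a secreted glycoprotein that binds galectins, stood at 71.3, 103, 84.2, 72.3 and 105 CPM in the controls and at 227, 255 and 97.6 CPM in TAD. TAD 3 lay inside the control range. Lgals3bp rose by a log2 fold change of 1.15 ± 0.29 (SE; edgeR adjusted p = 0.0215) and was not called without control 4, TAD 1 or TAD 2 (edgeR adjusted p up to 0.0785).

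The other members of that group were not called. Xaf1, a promoter of apoptosis, had a log2 fold change of 0.78 ± 0.40 (SE; edgeR adjusted p = 0.177) and was called when TAD 3 was left out (at 1.17, edgeR adjusted p = 0.0148). Ifi44 and Ifi35 had log2 fold changes of 0.53 ± 0.34 and 0.41 ± 0.24 (SE), with edgeR adjusted p of 0.288 and 0.245. Ifi35 was the uncalled member with the highest level in TAD, at 5.01 FPKM against 3.68 FPKM in control, and 16.8% of its exon bases lie in a gene on the opposite strand. Sp100, a nuclear body protein, and Helz2, a helicase, had log2 fold changes of 0.00 ± 0.15 and 0.04 ± 0.19 (SE; edgeR adjusted p = 0.994 and 0.901), and both signs changed with upper-quartile scaling.

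**Figure D2:**
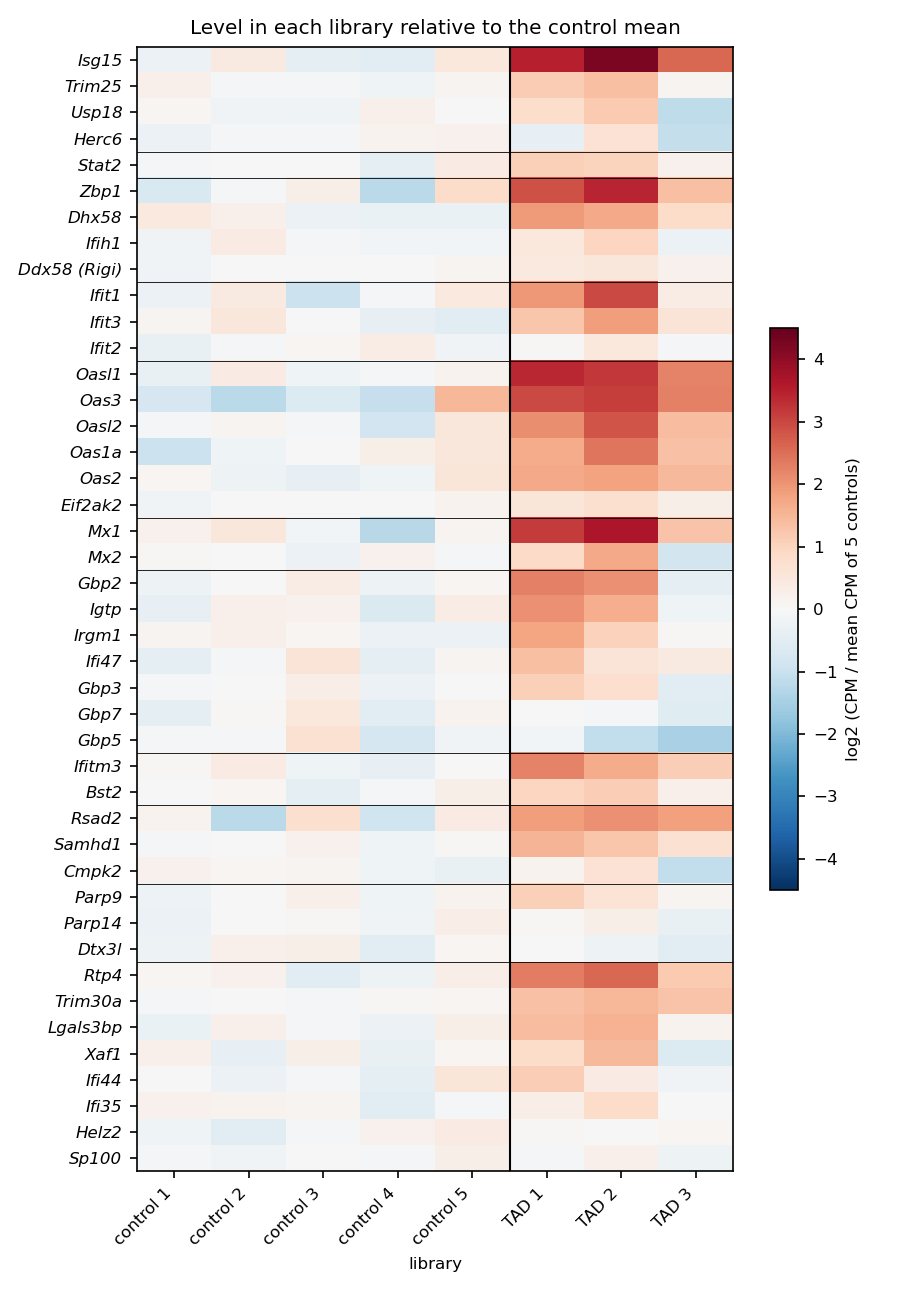
Each row is an interferon-stimulated gene and each column a library; colour gives the log2 ratio of the library's CPM to the control mean. TAD 1 and TAD 2 are above the control mean for 40 and 39 of the 43 members, and TAD 3 for 26.

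The TAD libraries differed among themselves in these genes. TAD 3 was the lowest of the TAD libraries for 42 of the 43 members, the exception being Helz2, and for all 25 called members. Over all tested genes TAD 3 was the lowest for 35.6%, and over genes called higher for 45.5%. TAD 2 was the highest for 27 members and TAD 1 for 15, against 35.8% and 31.1% of all tested genes. The members' median log2 ratio to the control mean reached 1.129 in TAD 1 and 1.258 in TAD 2 but 0.163 in TAD 3, and the medians over all tested genes lay between -0.045 and -0.009.

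Measured against the range of the controls, TAD 1 was above every control for 34 members and TAD 2 for 35, where 32.7% and 35.0% of all tested genes were. TAD 3 was above every control for 17 members (32.3% of all tested genes) and below every control for 13 (31.3% of all tested genes). TAD 1 and TAD 2 were each below every control for 1 member (32.0% and 32.4% of all tested genes). The median ratio of the highest to the lowest library over members was 1.66 among controls and 2.29 in TAD. Genes with at least 1 CPM in control had medians of 1.55 and 1.61.

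The size of the drop differed from member to member. Trim30a was 1.02-fold higher in TAD 1 than in TAD 3 and 1.16-fold higher in TAD 2 than in TAD 3, and Rsad2 was 1.02-fold and 1.14-fold higher. Gbp2 was 6.44-fold and 5.49-fold higher in TAD 1 and TAD 2 than in TAD 3, and Ifit1 3.04-fold and 6.18-fold. Members such as Rsad2 and Trim30a were thus at a like level in every TAD library, and Gbp2 and Ifit1 stood apart in TAD 1 and TAD 2 alone. These 4 genes were chosen after their values were seen. Without TAD 3, all 25 called members remained called, and Usp18, Ifih1, Mx2, Gbp3, Parp9 and Xaf1 were called too.

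**Figure D3:**
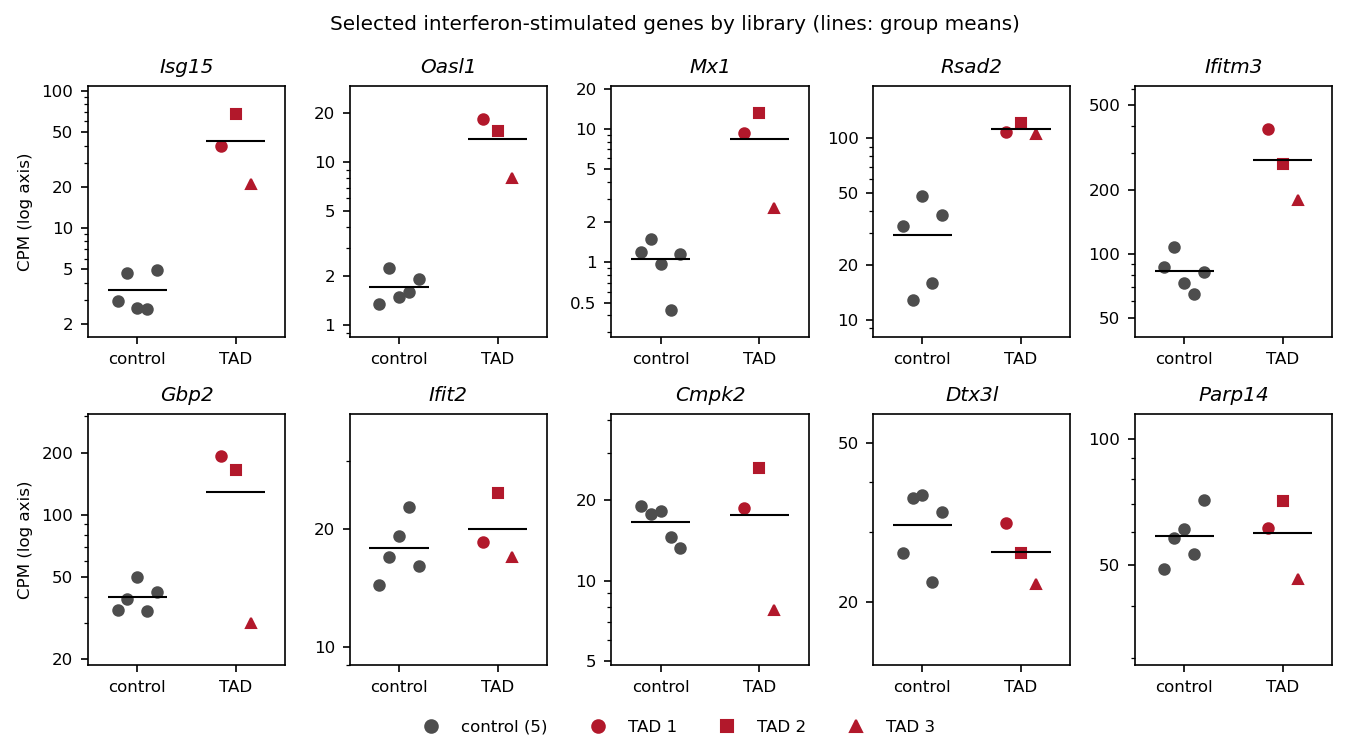
CPM on a log axis in each control and TAD library for 10 members, 6 called higher and 4 not called, with lines at the group means. TAD 3 is the lowest TAD library in every panel and lies beside the other TAD libraries for Rsad2 (106 CPM). It is below all controls for Gbp2 (30.0 CPM), Cmpk2 (7.75 CPM), Dtx3l (22.2 CPM, by a small margin) and Parp14 (46.3 CPM).

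Cell type markers also differed between libraries. Beside the counts of markers that rose or fell, 15.2% of all tested genes were called higher and 11.8% lower. Summed neutrophil markers, of which 10 of 11 were in the table, stood at 19.6, 11.7, 10.1, 15.8 and 129 CPM in controls 1 to 5. Control 5 stood apart from the other controls but remained below TAD. In TAD 1 to 3 the sum was 1248, 1057 and 428 CPM, with TAD 3 the lowest as for most members. Some defining neutrophil genes, among them Ly6g, Elane and Camp, had 0 counts in some libraries. The 15 macrophage and monocyte markers stood at 460 to 782 CPM in the controls and at 1753, 1280 and 1819 CPM in TAD, and 9 of them rose. Unlike for most members, TAD 3 was the highest and TAD 2 the lowest TAD library. Red cell markers stood at 1606 to 7530 CPM in the controls and at 56226, 77314 and 31095 CPM in TAD, the same order as most members. Plasmacytoid and conventional dendritic cell markers were analysed for 7 of the 10 listed, without Siglech, Ccr9 and Xcr1. Their sum stood at 156 to 184 CPM in the controls and at 148, 155 and 137 CPM in TAD. Among these 7, 2 rose, 1 fell and 4 were not called. T, NK and B cell markers stood at 8.14 to 28.3 CPM in the controls and at 26.4, 25.7 and 17.1 CPM in TAD. In both lists TAD 3 was again the lowest TAD library. The dendritic cell sum was below every control in every TAD library, in TAD 2 by a small margin. The T, NK and B cell sum lay inside the control range. Summed adipocyte markers were lower in every TAD library, at 5943, 9362 and 6301 CPM against 13459 to 15260 CPM in the controls, and 6 of the 10 fell. Endothelial markers stood at 1524 to 2171 CPM in the controls and at 1685, 1168 and 1487 CPM in TAD, and 3 of the 10 fell. The 10 fibroblast markers stood at 2227 to 5132 CPM in the controls and at 5601, 1077 and 8364 CPM in TAD, with 1 that fell. The part of these cells in the levels of the members was not tested. In bulk tissue a change in the number of cells of a type cannot be told apart from a change in RNA per cell.

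The 10 contractile smooth muscle markers that define the labelled tissue were all detected, at a summed 2695 to 12932 CPM in the controls and at 2316, 938 and 5218 CPM in TAD. Cardiomyocyte markers stood at 19772, 1792, 71.7, 3348 and 45.3 CPM in controls 1 to 5 and at 13443, 1962 and 39.2 CPM in TAD 1 to 3. Some of their genes had 0 counts in a library. Without control 1 and TAD 1 together, 12 members were called higher, and 8.02% of all tested genes. Neuron and Schwann cell markers were 1470 CPM in TAD 2, against at most 155 CPM in a control. Without control 1, control 2 and TAD 2 together, 13 members were called, and 12.4% of all tested genes. The only skeletal muscle marker analysed, Ckm, ran from 0.384 to 721 CPM in the controls and stood at 47.1, 15.5 and 0 CPM in TAD. Library totals ran from 12042971 to 15039132 counts.

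Several members differed from a gene of the same family or locus. The pairs below were chosen after their values were seen, and their ratios are of FPKM within a library, given as a description. Rsad2 and Cmpk2 start 12.8 kb apart on opposite strands of chromosome 12. The ratio of Rsad2 to Cmpk2 was 1.513, 0.6312, 2.32, 0.9535 and 2.508 in the controls and 5.07, 4.063 and 12.07 in TAD, so every TAD library was above every control. Isg15 to Usp18 was 1.286 to 3.11 in the controls and 13.57, 17.8 and 27.48 in TAD, and for both pairs TAD 3 had the highest ratio.

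The ratio of Ifit1 to Ifit2 was 0.3363 to 1.077 in the controls and 2.634, 4.022 and 0.9494 in TAD. TAD 3 was therefore within the controls for this pair. Gbp2 to Gbp5 was 7.153 to 13.22 in the controls and 48.5, 80.16 and 18.85 in TAD, without overlap. Parp9 and Dtx3l overlap by 682 bases on opposite strands of chromosome 16, and their ratio was 0.5085 to 0.7198 in the controls and 1.219, 1.052 and 0.9065 in TAD. The labels used do not state strandedness, so reads in the shared stretch cannot be assigned to either gene.

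Upstream and parallel genes of the pathway were read from 5 further lists, of which 94 genes were tested, 34 were called higher and 6 lower. Of all 13701 tested genes, 15.2% were called higher and 11.8% lower. The 21 interferon ligand genes were not analysed here. Of 10 genes for receptors, their kinases and IRF9, 4 rose and the other 6 were not called, with a median log2 fold change of 0.53. Irf9, the DNA-binding subunit of ISGF3, stood at 29.1, 30.7, 29.1, 20.8 and 34.6 CPM in the controls and at 47.2, 53.6 and 53.7 CPM in TAD. It did not share the drop in TAD 3 and rose by a log2 fold change of 0.84 ± 0.16 (SE; edgeR adjusted p = 0.00728). The kinase gene Jak2 rose by 0.89 ± 0.15 (SE; edgeR adjusted p = 0.00397). Ifnar2, a chain of the type I receptor, rose by 0.57 ± 0.17 (SE; edgeR adjusted p = 0.0364) and was not called without control 2, 4 or 5, TAD 1 or TAD 3. Il10rb, a chain of the type III receptor, rose by 1.30 ± 0.42 (SE; edgeR adjusted p = 0.0496), and that call was lost without any 1 of the 8 libraries.

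**Figure D4:**
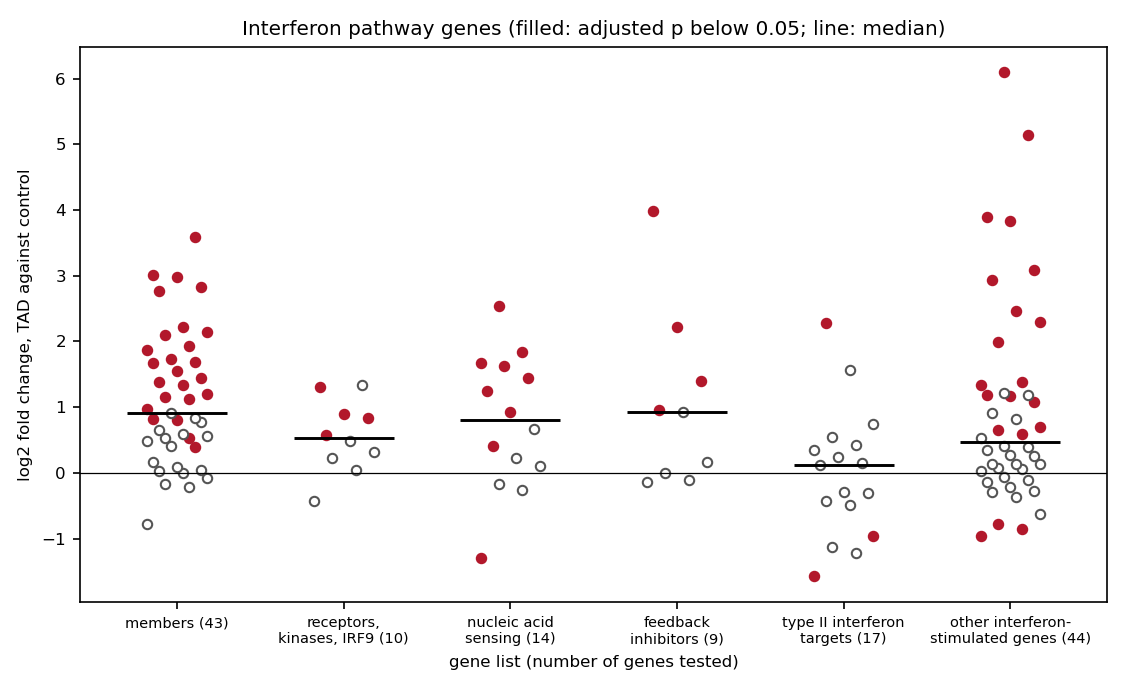
Log2 fold change of TAD over control for the genes of the pathway lists, 1 point a gene, with called genes filled. The list of nucleic acid sensing genes has 8 called higher and 1 lower, and that of type II interferon targets 1 higher and 2 lower. Among all tested genes, 15.2% were called higher and 11.8% lower.

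Nucleic acid sensing genes were called higher for 8 of 14 and lower for 1, against 15.2% and 11.8% of all tested genes. Irf7, the transcription factor that amplifies interferon production, stood at 11.3, 6.97, 8.65, 10.6 and 11.98 CPM in the controls and at 57.0, 89.1 and 26.2 CPM in TAD. Its order across TAD libraries was that of Isg15, and it rose by a log2 fold change of 2.53 ± 0.35 (SE; edgeR adjusted p = 0.0017). Sting1, the adaptor of the DNA sensor cGAS, stood at 10.2, 12.8, 8.95, 9.32 and 11.3 CPM in the controls and at 44.5, 23.5 and 44.9 CPM in TAD. TAD 3 was its highest library, and Sting1 rose by a log2 fold change of 1.84 ± 0.23 (SE; edgeR adjusted p = 0.00116). Cgas and the endosomal RNA receptor gene Tlr7 rose by 1.67 ± 0.35 and 1.62 ± 0.32 (SE; edgeR adjusted p = 0.00898 and 0.00723). Mavs, the adaptor of RIG-I and MDA5, named after its values were seen, stood at 97.9, 108, 81.8, 100 and 138 CPM in the controls and at 37.7, 35.7 and 55.8 CPM in TAD. All TAD libraries were below all controls, and its log2 fold change was -1.29 ± 0.22 (SE; edgeR adjusted p = 0.00379).

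Genes that restrain the pathway rose for 4 of 9 (15.2% of all tested genes were called higher), and the other 5 were not called. Socs3, which blocks JAK kinases downstream of cytokine receptors of the IL-6 family, stood at 11.9, 21.6, 11.9, 8.51 and 15.7 CPM in the controls and at 373, 82.3 and 209 CPM in TAD. Its order across TAD libraries differed from that of the members, with TAD 2 the lowest. Socs3 rose by a log2 fold change of 3.99 ± 0.47 (SE; edgeR adjusted p = 0.000864), and by 3.39 without TAD 1. The phosphatase genes Ptpn6 and Ptpn2 rose by 2.22 ± 0.28 and 0.95 ± 0.18 (SE; edgeR adjusted p = 0.00114 and 0.0057). Stat3, a transcription factor activated by cytokine receptors, rose by 1.39 ± 0.19 (SE; edgeR adjusted p = 0.0017).

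Type II interferon targets were called higher for 1 of 17 and lower for 2, against 15.2% and 11.8% of all tested genes. Their median log2 fold change was 0.12. Iigp1, an immunity-related GTPase, stood at 46.2, 41.0, 97.2, 34.2 and 49.8 CPM in the controls and at 400, 292 and 92.8 CPM in TAD. TAD 3 was below control 3, and Iigp1 rose by a log2 fold change of 2.29 ± 0.47 (SE; edgeR adjusted p = 0.00896). Gbp4, a guanylate-binding protein gene, stood at 38.6, 30.0, 73.4, 23.3 and 37.5 CPM in the controls and at 14.2, 13.9 and 12.6 CPM in TAD. All its TAD libraries were below all controls, and Gbp4 fell by 1.58 on the log2 scale (SE 0.36; edgeR adjusted p = 0.0135). Cd274, which encodes the checkpoint ligand PD-L1, had a log2 fold change of -0.95 ± 0.27 (SE; edgeR adjusted p = 0.03) and was not called without control 1, 2, 3 or 5, TAD 2 or TAD 3.

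Of 44 further interferon-stimulated genes outside the 43, 17 rose and 3 fell, against 15.2% and 11.8% of all tested genes. The largest increases were in the Schlafen family of growth regulators on chromosome 11. Slfn4 stood at 2.55, 2.40, 1.49, 3.15 and 13.4 CPM in the controls and at 215, 577 and 155 CPM in TAD. Control 5 stood apart from the other controls, yet far below TAD. Slfn4 rose by a log2 fold change of 6.10 ± 0.80 (SE; edgeR adjusted p = 0.00135), by 7.03 without control 5 and by 5.33 without TAD 2. Slfn1 and Slfn2 rose by 5.14 ± 0.59 and 3.83 ± 0.38 (SE; edgeR adjusted p = 0.000807 and 0.000478), and Slfn1 by 5.77 without control 5. Ifitm1, a relative of Ifitm3, rose by 3.89 ± 0.42 (SE; edgeR adjusted p = 0.000643). The genes that fell, named after their values were seen, were Slfn3, Ifi27 and Ifi203, with log2 fold changes of -0.96 ± 0.30, -0.86 ± 0.20 and -0.78 ± 0.21 (SE; edgeR adjusted p = 0.0462, 0.0158 and 0.0282). Ifi27 was not called without TAD 1, Ifi203 not without control 1, 2 or 5, TAD 2 or TAD 3. Slfn3 was not called without any 1 of the controls, TAD 2 or TAD 3 (edgeR adjusted p up to 0.106).

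The promoter letters shown above were set beside these calls as a description. Of the 20 called members with a window, 15 held the ISRE core, and Oasl1, Oasl2, Samhd1, Trim25 and Lgals3bp did not. Of the 14 members with a window that were not called, 4 held it, namely Ifih1, Gbp3, Gbp5 and Gbp7. Of the 29 matches in members, 23 lay before the start and 20 within 150 bases before it. The window holds 250 bases before the start and 50 after it, which alone would place most matches upstream. Positions in other genes were not compared. In direction, 15 matches ran forward and 14 in reverse. The GAS element, searched as TTCNNNGAA, which reads the same on both strands, was in 10 members (29.4%) and in 9.55% of all genes with a window. It was in 6 of the 20 called members and 4 of the 14 not called. A GAS and an ISRE match overlapped in 2 members, Ifitm3 and Bst2. Among tested genes outside the members, 401 with the ISRE core had 19.70% called higher and 10351 without it had 14.96%. A match is a run of letters, and binding at these places was not measured.

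**Figure D5:**
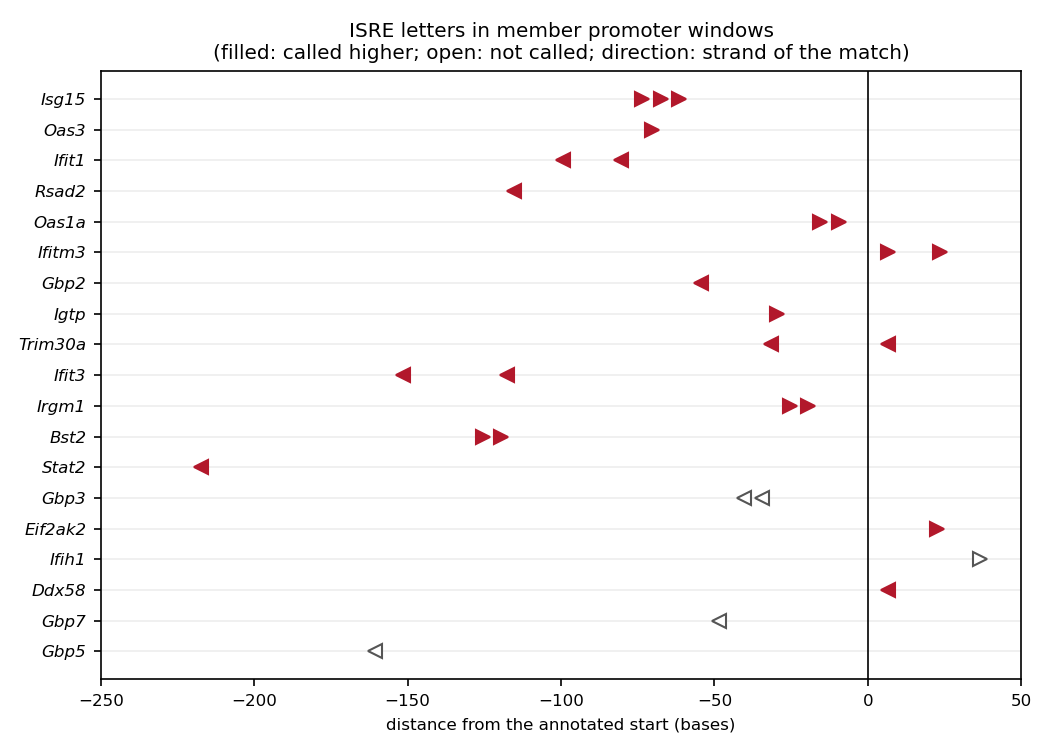
Position of each ISRE core match relative to the transcription start, in bases, for the 19 members whose promoter window holds one, with called and uncalled members marked apart. Of the 29 matches, 20 lie within 150 bases before the start.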

How the data were processed

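Per the labels' protocols, aorta RNA was isolated using TRIpure, and 200 ng went into each NEBNext Ultra library. HISAT2, HTSeq, fastp 0.23.1 and bcl2fastq 2.19 are named in the submitters' processing notes, along with human builds although the gene identifiers are those of mouse. The authors' build and their treatment of reads that match several genes are not given in the sources used here. For every gene and library the authors deposited a raw count and an FPKM value (fragments per kilobase, scaled to the library), per the file headers. Groups came from the titles.

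The members and gene lists were chosen with earlier results of these data known. The quasi-likelihood test of edgeR 4.0.16 (in R 4.3.3, TMM scaling) ran on the 13701 of 13839 genes that passed filterByExpr, TAD against control over all 8 libraries, with Benjamini-Hochberg adjustment over all tested genes and a threshold of 0.05. Each standard error is |log2 fold change| / sqrt(F). The biological coefficient of variation was 41.6%. The procedure was tested on simulated data. Values per library were given for up to 3 members of each role with the largest change (and for Ddx58 and Gbp5, as marked), and pathway genes were named as up to 4 called genes of each list with the largest change; other names are marked. A listed pathway gene is not reported here. Alternatives were upper-quartile scaling, DESeq2 1.42.0, no filter, limma 3.58.1 on log2(FPKM + 1) and log2(FPKM + 0.1) for genes with a mean of at least 0.5 FPKM, a replicate block and leaving out libraries. Promoter windows came from RefSeq on GRCm38.p6, and exon overlaps from GENCODE M21. Library depth limits precision for scarce members, and reads carry no molecular identifiers.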

Additional observations from a re-analysis of the deposited data

Results flagged for a closer look

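Dixon's gap test was applied to the 5 control libraries for each of the 43 members, and 2 members had a library beyond the critical value of 0.71; chance gives about 1 in 20. Ifih1 stood at 26.98 CPM in control 2, with the next control at 20.44 CPM. Oas3 stood at 6.45 CPM in control 5, with the next control at 1.492 CPM. The Oas3 increase was larger without control 5 (log2 fold change 3.71), and the cause of either high value was not tested.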

How the results depend on the processing

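The count of 25 members called higher was 24 with upper-quartile scaling, 26 with DESeq2 and 25 without the filter. Of all tested genes, 13.5%, 18.3% and 15.1% were called higher there, against 15.2% in the main test. With limma at either pseudocount the count was 21 (Mx1 was not tested there), and 16.8% of all tested genes were called higher. The count was 15 to 31 with 1 library left out, where 10.2% to 15.1% of all tested genes were called higher. It was 12 without control 1 and TAD 1 (8.02% of all tested genes), and 13 without control 1, control 2 and TAD 2 (12.4%), settings chosen after seeing the data. No member was called lower under any setting. Of the 94 pathway genes, 40 were called, 32 to 40 with 1 library left out, and 23 without control 1 and TAD 1. In either direction, 27.0% of all tested genes were called in the main test. Without control 1 and TAD 1, 1963 of 13693 tested genes were called. Limits are the number of TAD libraries (3) and low counts of scarce members.

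The replicate numbers were tried as a pairing. Same-numbered libraries correlated at 0.427, 0.097 and 0.544. Controls 1 and 3 correlated best with the TAD library of their own number, and control 2 with TAD 1 (0.22). The labels used state no pairing, so the main test used none, and what the numbers stand for was not tested. With the replicate block on libraries 1 to 3, 11 members and 18 pathway genes were called, against 12 and 26 in the same libraries without the block. Of all tested genes, 4.75% were called higher with the block and 6.48% without it. In either direction, 1166 of 13602 tested genes were called with the block and 1536 without it.

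Some members that were not called changed sign, and the cause was not tested. With upper-quartile scaling the log2 fold changes were -0.0261 for Parp14, -0.0478 for Sp100 and -0.0110 for Helz2, and with DESeq2 -0.0134 for Sp100. Cmpk2 was at -0.0277 with limma on log2(FPKM + 0.1), -0.2196 with the replicate block and -0.0629 in libraries 1 to 3 without it, where Herc6 was at 0.0520. Without control 1 and TAD 1, Parp14 was at -0.0543 and Helz2 at -0.0190. Without control 1, control 2 and TAD 2, Ifit2, Cmpk2, Parp14, Sp100 and Helz2 were at -0.1423, -0.2351, -0.2204, -0.2214 and -0.1386. With 1 library left out the log2 fold changes ran from -0.6709 to 0.2303 for Herc6, from -0.0134 to 0.2717 for Ifit2, from -0.3288 to 0.4393 for Cmpk2, from -0.1214 to 0.1755 for Parp14, from -0.1318 to 0.0974 for Sp100 and from -0.0781 to 0.1514 for Helz2.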
